A study of Caenorhabditis elegans with 2 samples.

Results

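The genes described are 9 members of the Pumilio (PUF) family of Caenorhabditis elegans, puf-9, puf-8, puf-3, puf-5, puf-6, puf-7, puf-11, fbf-1 and fbf-2, among 19973 protein-coding genes. They were chosen by family membership after the strong peak beside puf-9 was known, and that peak's rank and signal are therefore given as a description, with no test. All 9 symbols were matched in the annotation. A peak was assigned to a gene when its summit lay from 5 kb upstream of the gene to 1 kb downstream of it, in coordinates of the ce11 build. Binding was measured by ChIP-seq, in which DNA bound by a tagged protein is pulled down and sequenced. The protein was an eGFP fusion of PEB-1, which binds DNA through a zinc finger of the FLYWCH type. Whole L2 larvae of both sexes made up the single group, with 2 biological replicates. The strain, OP86, carried unc-119(ed3) III and the transgene wgIs86, and no comparison group was analysed here.

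PUF proteins bind short elements in the 3′ untranslated regions of messenger RNAs and repress or destabilise them. FBF-1 and FBF-2 keep germline stem cells from entering meiosis, PUF-8 acts in germ cell fate and meiosis, and PUF-3, PUF-5, PUF-6, PUF-7 and PUF-11 act in oogenesis and early embryogenesis. PUF-9 is known for work in the soma, where it is required for the larval-to-adult change of the epidermis. There it acts on the messenger RNA of hbl-1, a heterochronic transcription factor gene. The other members are called germline paralogues here for the roles named above, which may not be their only ones. Larvae at the L2 stage consist mostly of somatic cells, and peaks from whole animals cannot be given to a tissue. Binding in few cells and weak binding in many cannot be told apart.

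The strongest of all peaks near a PUF gene lay just upstream of puf-9 (X:5841592-5845987, plus strand). It spanned X:5841115-5841470, and its summit lay 299 bp upstream of the only annotated transcription start site (TSS) of puf-9. The summit fell in exons of 2 short non-coding RNA genes on opposite strands, W06B11.7 (X:5841170-5841350, minus strand) and W06B11.9 (X:5841185-5841361, plus strand). The start site of puf-9 was the nearest of any protein-coding gene. That of dct-11, on the other strand, lay 1515 bp away, so the same summit is also upstream of dct-11 and is in its window as well. The 300 bases around this summit are shown because they are the only sequence near a PUF gene that the thresholded list holds. For contrast follow the windows at the best pooled peaks of puf-7, which ranked highest among the germline paralogues, and of puf-8, the closest relative of puf-9 by protein sequence. Each is centred on the summit, lies at X:5841143-5841442, IV:5481995-5482294 and II:7299153-7299452 of ce11, and is written 5′ to 3′ along the strand of the PUF gene (plus, plus and minus). Capitals mark GAGAGA and the core of the PEB-1 consensus as recalled from published work, which is TGCC with any base but C before it and A or G after it. Each motif was searched on both strands, so a match can also appear as its reverse complement.
puf-9: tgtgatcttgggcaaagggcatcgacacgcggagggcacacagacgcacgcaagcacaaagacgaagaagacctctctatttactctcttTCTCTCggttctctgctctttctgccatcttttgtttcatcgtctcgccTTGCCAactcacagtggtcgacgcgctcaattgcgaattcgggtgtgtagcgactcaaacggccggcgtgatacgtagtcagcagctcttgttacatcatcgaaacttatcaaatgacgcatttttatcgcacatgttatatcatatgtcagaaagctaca
puf-7: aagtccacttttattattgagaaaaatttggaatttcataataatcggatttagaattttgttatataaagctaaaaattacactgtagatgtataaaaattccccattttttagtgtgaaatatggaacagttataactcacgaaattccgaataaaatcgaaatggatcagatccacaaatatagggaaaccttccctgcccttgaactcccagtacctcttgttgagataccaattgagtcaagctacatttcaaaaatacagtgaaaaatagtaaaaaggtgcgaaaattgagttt
puf-8: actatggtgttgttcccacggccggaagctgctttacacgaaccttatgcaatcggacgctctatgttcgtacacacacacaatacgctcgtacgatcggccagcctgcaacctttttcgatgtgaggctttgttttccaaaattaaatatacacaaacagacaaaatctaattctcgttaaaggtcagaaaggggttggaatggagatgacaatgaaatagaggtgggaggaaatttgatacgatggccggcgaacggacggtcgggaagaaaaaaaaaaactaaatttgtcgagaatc

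The puf-9 window held 1 GAGAGA, at bases 91 to 96 of the printed run, and 1 core, at bases 140 to 145. The core stood close to the pooled summit, on which the window is centred, and the GAGAGA farther off. The replicate 2 summit lay 114 bp upstream of the pooled summit, and so farther from the core. Both motifs lay in a stretch rich in C and T, and the window had 48% G and C. The puf-7 and puf-8 windows held neither motif, with 30.7% and 43.7% G and C. Over 300-base windows the median G and C was 49% at thresholded summits, 37.3% at pooled summits and 34.3% in protein-coding promoters. GAGAGA occurred in 65% of the 300-base windows at the 160 thresholded summits, in 19% of those at the 30000 pooled summits and in 21.8% of 300-base promoters of protein-coding genes. For the core the shares were 71.2%, 46.8% and 40.7%. Windows with both motifs made up 48.8% of thresholded summits, 8.71% of pooled summits and 9.02% of promoters, so the combination seen at puf-9 was common among the thresholded peaks. At the best pooled summits of the other members, puf-3 had 1 core, puf-11 had 1 GAGAGA and fbf-2 had 2 cores, and none of these had both motifs. A match is a description of the letters and no evidence of a site.

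The puf-9 peak stood at nearly the same rank in every list. Peaks were ranked by signal, the value deposited for each peak, with rank 1 the highest. Signal was 83.5 in the pooled list (rank 12), 61.2 in replicate 1 (rank 13) and 28.1 in replicate 2 (rank 10). The scales of the lists differ, so each value was also set against its own list: the puf-9 signal was 8.02 times the median peak of replicate 1 and 4.05 times that of replicate 2. The ranks were close in both replicates, while the signal over the median was larger in replicate 1. The summits of these peaks in the 2 replicates lay 99 bp apart, at -314 bp and -413 bp from the TSS. Replicate 2 also listed a weaker peak beside it, at -209 bp (rank 11670). Among the 149 thresholded peaks with an overlapping peak in both replicates the median distance was 46 bp, and 39 of them had a distance at least as long as that of puf-9.

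This peak was 1 of several that held a high place in both replicates. Of the 160 thresholded peaks, 44 ranked within the highest 160 of both replicates and 11 within the highest 20 of both, the puf-9 peak among them. The latter limit takes in only 20 peaks of each replicate, and the best peaks of sup-26, egl-26 and ppfr-1 also met it. By signal the puf-9 peak was the 7th of the 61 thresholded peaks on the X chromosome. It was the 3rd of the 53 that lay over 20 kb from peb-1, the locus of the target itself.

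**Figure D1:**
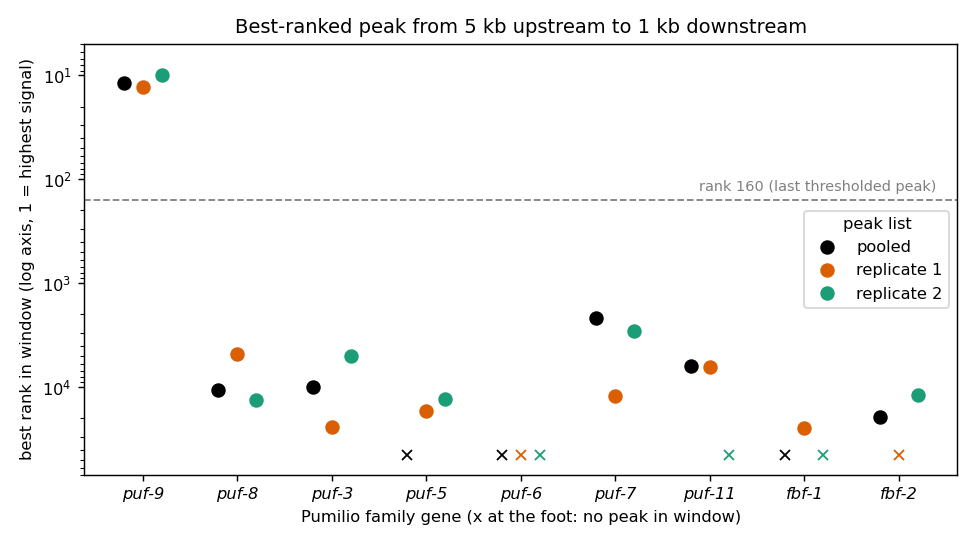
Best rank of any peak in the window of each PUF gene (log axis, rank 1 at the top), in the pooled list and in each replicate; a cross at the foot means no peak in that list. The puf-9 points lie at ranks 10 to 13, above the dashed line at rank 160, and every point of the other 8 genes lies below it, the highest at rank 2155.

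No germline paralogue had a thresholded peak, so that 1 of the 9 members had one. Of all protein-coding genes 1.19% had a thresholded summit in the same window (237 genes). The share was 2.82% for genes on the X chromosome and 0.928% for autosomal genes. puf-9 is the only member on X, and the other 8 lie on chromosomes II and IV. The count of 0 among 8 autosomal members lies near that background. A summit within the highest 160 of both replicates was held by 0.295% of protein-coding genes, puf-9 among them. In all, 11 genes had a best pooled rank of 12 or better, puf-9 and dct-11 included, which is 0.0551% of protein-coding genes. The thresholded list ended at a signal of 35.4, and the first peak outside it, at rank 161, also had 35.4 after rounding. The highest pooled signal of a germline paralogue was 19.7, well below that limit.

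Below the threshold, the germline paralogues had 8 pooled peaks in all, with signals from 9.94 to 19.7 and a median of 13.4. The median of the whole pooled list was 12.8. The signal of puf-9 was 4.25 times that of the best germline peak in the pooled list, 5.83 times in replicate 1 and 2.71 times in replicate 2. The highest germline signals were 10.5 in replicate 1 and 10.3 in replicate 2. Some pooled peak lay in the windows of 91.6% of all protein-coding genes, with a median of 2 peaks a window, and in those of 6 of the 9 PUF genes. The best rank of a protein-coding gene with a pooled peak had a median of 7313, and puf-7 and puf-11 ranked better than that while puf-8, puf-3 and fbf-2 ranked worse. Just beyond the windows lay pooled peaks 122 bp outside that of puf-5 (rank 20286), 196 bp outside that of puf-8 (rank 4717) and 375 bp outside that of puf-9 (rank 10391).

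The paralogue with the highest rank was puf-7 (IV:5486713-5490322, plus strand), one of the oogenesis genes. Its only peak had a signal of 19.7 in the pooled list (rank 2155), 8.15 in replicate 1 (rank 12154) and 10.3 in replicate 2 (rank 2864). The summit lay 4568 bp upstream, 432 bp inside the edge of the window. It fell in coding sequence of T11F8.12, whose TSS was 186 bp away, and was nearer to that gene than to puf-7. As many as 16.2% of protein-coding genes had a rank at least as good.

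Next came puf-11 (IV:6421585-6423497, plus strand), a gene of maternal function. Its peak had a signal of 15.9 in the pooled list (rank 6318) and 9.87 in replicate 1 (rank 6426), and replicate 2 had no peak in the window. The summit lay 3760 bp upstream, in the 3′ UTR of Y73B6BL.23. The paralogue of puf-11, puf-3 (IV:13510307-13512162, minus strand), had 3 pooled peaks upstream, with signals of 14.3, 10.4 and 9.94. The best, at rank 10074 and -2323 bp, lay in an intron of dcap-2, a gene for an mRNA decapping enzyme. A peak overlapped it in replicate 2 (rank 5065) and none did in replicate 1.

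The 2 pooled peaks of puf-8 (II:7296110-7298247, minus strand) had signals of 14.1 and 12.7. The stronger one, at rank 10676, lay 1056 bp upstream but 39 bp from the start of C30G12.1 on the other strand. It ranked 4848 in replicate 1 and 27525 in replicate 2. The weaker one lay in coding sequence of puf-8 itself, at rank 15332, and ranked 28202 and 13257 in replicates 1 and 2. Both pooled peaks therefore recurred in both replicates, at places deep in the lists.

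The stem cell genes fbf-1 (II:6078263-6080843, minus strand) and fbf-2 (II:6088863-6091480, minus strand) are neighbours. fbf-2 had 1 pooled peak, in its coding sequence 2157 bp after the TSS, with a signal of 11.7 (rank 19560). A peak of replicate 2 overlapped it (rank 12246), and no peak of replicate 1 lay in the window. fbf-1 had no pooled peak, and its single replicate peak, 279 bp upstream, ranked 24864 in replicate 1 with a signal of 6.16. That distance is like the one at puf-9, while the rank is near the end of the list of 30000.

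puf-5 (II:8575541-8577787, plus strand), an oogenesis gene, had no pooled peak. Its replicate peaks had signals of 7.23 in replicate 1 (-1302 bp, rank 16858) and 7.28 in replicate 2 (-4597 bp, rank 12963) and did not coincide. puf-6 (II:13039792-13043445, minus strand) had no peak in the pooled list or in either replicate. Such an empty window was found at 2.16% of protein-coding genes.

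**Figure D2:**
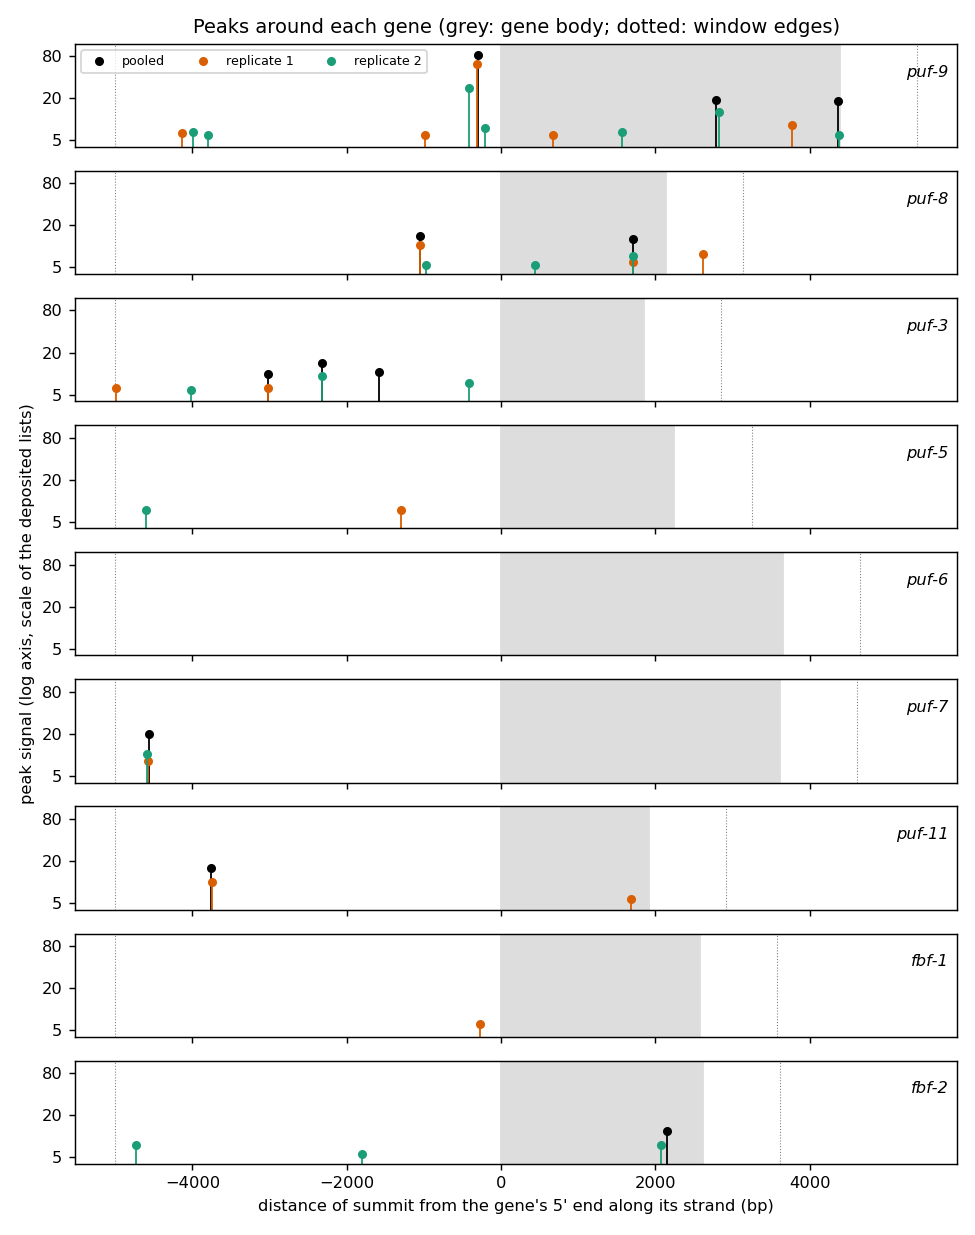
Signal of each peak (log axis) against the distance of its summit from the 5′ end of the gene, along the gene's strand, for the pooled list and both replicates; grey marks the gene body and dotted lines the edges of the window. The 3 lists coincide in a tall peak from 299 to 413 bp before puf-9, whose other peaks and all peaks of the paralogues stay under a signal of 20.

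A pooled peak close to the member's own TSS was found at puf-9 and not at the other members. In the narrower window from 1 kb upstream to 200 bp downstream of the 5′ end, puf-9 alone among the 9 genes had a pooled summit, where 33.3% of protein-coding genes had one. The best pooled summits of puf-8, puf-3, puf-7 and puf-11 lay 1056 to 4568 bp upstream, and that of fbf-2 lay within the gene. Those upstream summits were each nearer to a start site of another protein-coding gene, 39 bp away at puf-8 and 186 bp at puf-7. The puf-9 summit too was nearer to start sites of other genes, the non-coding W06B11.7 and W06B11.9, at 57 and 108 bp. Single replicates did list peaks of paralogues in that narrower window, at -413 bp from puf-3 (replicate 2, rank 12636, signal 7.33), at -977 bp from puf-8 (replicate 2, rank 27525, signal 5.41) and at -279 bp from fbf-1. The first of these lay as far from its gene as the replicate 2 summit of puf-9, at a far lower rank. The other pooled peaks of puf-9 lay within the range of signals of its paralogues, above 7 of their 8 pooled peaks. One, in an intron 2790 bp after the TSS, had a signal of 18.8 (rank 2768) and a counterpart in replicate 2 (rank 673, signal 12.9) and none in replicate 1. That replicate 2 signal exceeds the highest of a germline paralogue in the same list, 10.3. The other, in the 3′ UTR at 4372 bp, had a signal of 18.5 (rank 3000), and a peak of replicate 2 overlapped it at rank 21230.

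The strong puf-9 peak recurred in both replicates, and the weaker peaks did so unevenly. Of the 8 pooled peaks of germline paralogues, 3 overlapped a peak in both replicates (2 of puf-8 and 1 of puf-7), 2 a peak of replicate 1 alone, 2 a peak of replicate 2 alone and 1 neither. That is 37.5% in both, beside 34.2% of all pooled peaks and 93.1% of the 160 highest. The germline peaks thus recurred about as often as pooled peaks in general.

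**Figure D3:**
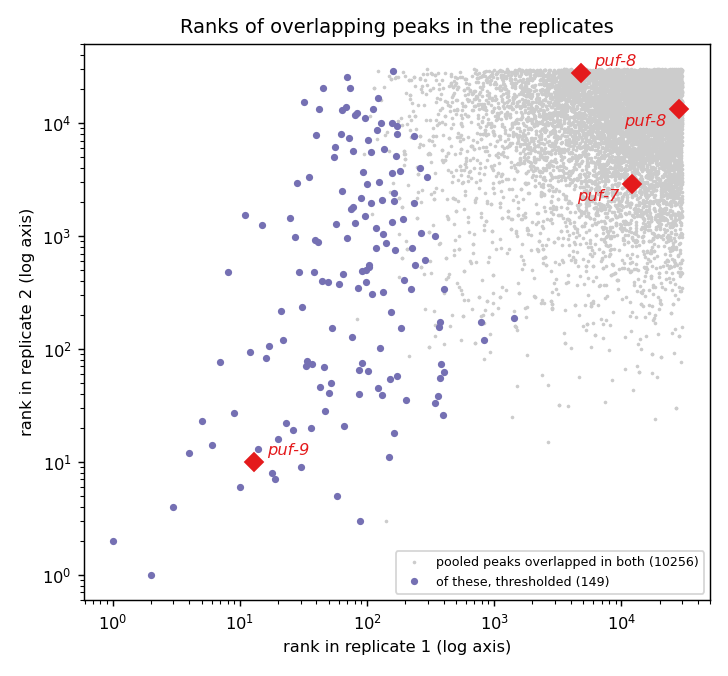
Rank in replicate 1 against rank in replicate 2 (log axes) for the 10256 pooled peaks that overlap a peak in both; purple marks the 149 thresholded peaks and red the PUF genes. The puf-9 peak, at 13 and 10, lies among the thresholded peaks with high ranks in both, while those of puf-8 and puf-7 lie in the dense cloud of low ranks.

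Close copies share sequence, and reads that fall wholly within it cannot be placed on 1 copy alone. PUF-6 and PUF-7 were identical at 97.5% of 485 aligned residues, FBF-1 and FBF-2 at 91.7%, and PUF-3 and PUF-11 at 89.8%. PUF-9 was closest to PUF-8, at 44.7%, and had 28.9% to 33.4% identity with the other 7. Words of 36 bases that also occur elsewhere in the genome made up 61% of the puf-6 window and 53.5% of the puf-7 window. The figure was 34.4% for fbf-1, 10.6% for puf-11, 8.60% for fbf-2 and 2.21% for puf-3, and 0 for puf-9, puf-8 and puf-5, against a median of 1.77% over protein-coding genes. Of the distinct repeated words of puf-6, 69.4% lay in the puf-7 window. Across protein-coding genes, 71.3% of the 401 windows with at least 50% repeated words held no pooled peak, against 7.13% of the other 19572. For windows with no peak in any of the 3 lists the shares were 60.8% and 0.961%. The empty window of puf-6 and the bare gene body of puf-7 lie in windows of the kind that more often lacked a listed peak, and the part of repeated sequence in their lack of peaks was not tested. The window of puf-5, also without a pooled peak, held no repeated word. The puf-9 peak itself held none either.

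**Figure D4:**
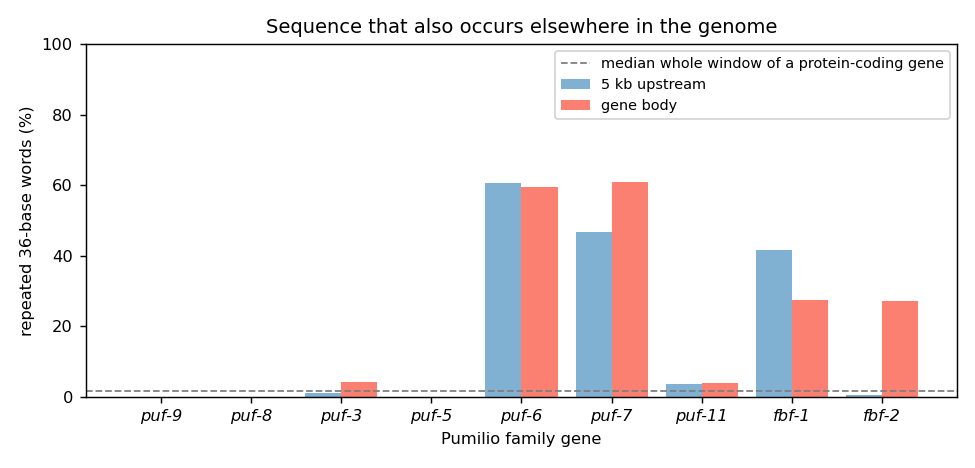
Percent of 36-base words that occur more than once in the nuclear genome, on either strand, in the 5 kb upstream of each PUF gene (blue) and in its gene body (red). The bars of puf-6 and puf-7 exceed 40% in both places, those of puf-9, puf-8 and puf-5 are at 0, and the dashed line is the median whole window of a protein-coding gene, 1.77%.

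Other genes of the PUF pathway had no thresholded peak, where 1.19% of all protein-coding genes had one, so counts of 0 in short lists lie near the background. Of the other PUF genes, puf-12 had a best pooled rank of 6408, the pseudogene puf-4 one of 8981 and the pseudogene puf-10 no pooled peak. Of 16 genes for PUF partners and co-regulators with a match, 0 had a thresholded peak and 2 a pooled rank within 1000, where 7.44% of protein-coding genes had such a rank. These were mex-3, which encodes a KH-domain RNA-binding protein (rank 509, signal 26.0, -4884 bp), and gld-2, the gene of a cytoplasmic poly(A) polymerase (rank 832, signal 23.3, intron). Of 13 genes whose mRNAs are known PUF targets, 0 had a thresholded peak either. The MAP kinase gene mpk-1 (rank 536, signal 25.7, intron) and egl-4, a cGMP-dependent protein kinase gene (rank 737, signal 24.0, intron), came within rank 1000. The windows of mex-3, gld-2, mpk-1 and egl-4 held 7, 8, 4 and 17 pooled peaks, against a median of 2 over protein-coding genes. A window with more peaks has more chances of a high best rank, and the share of 7.44% takes no account of that. hbl-1, the somatic target of PUF-9, lies upstream of puf-9 on the same strand, 13837 bp from its end to the start of puf-9. Its window held 11 pooled peaks, the best at rank 5805 with a signal of 16.2. The replicate peaks that overlapped that one ranked 16541 and 25374 in replicates 1 and 2. The best ranks anywhere in the hbl-1 window were 1679 and 4097 in replicates 1 and 2, at other peaks. The peak upstream of puf-9 was thus not matched by a strong peak at hbl-1.

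The 3 protein-coding genes whose best ranks in the 2 replicates were most like those of puf-9 were sup-26, egl-26 and ppfr-1. Likeness was the distance over the log10 ranks in the 2 samples, and dct-11, which shares the puf-9 peak, was not counted. sup-26, a gene for an RNA-binding protein, had ranks of 14 and 13 (distance 0.118), with the summit 2048 bp upstream in replicate 1. egl-26, needed for vulval morphogenesis, had ranks of 18 and 8 (0.171), 3144 bp upstream in both replicates. ppfr-1, a gene for a regulatory subunit of protein phosphatase 4, had ranks of 19 and 7 (0.226), within an intron. Signals of the 3 genes in the pooled list were 75.9, 87.7 and 84.8, beside 83.5 for puf-9. All 3 peaks lay farther from the TSS of their gene than that of puf-9. A short distance was not particular to puf-9, though, among genes with somewhat less similar ranks. In replicates 1 and 2 the summits of bet-2 (ranks 6 and 14) lay 414 and 269 bp upstream. Those of unc-115 (ranks 26 and 19) lay 47 and 96 bp upstream.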

How the data were processed

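DNA bound by eGFP-PEB-1 was mapped in 2 biological replicates of L2 larvae, which form 1 group by their labels. The peak lists used, in ce11 coordinates, were 1 list of 30000 peaks for each replicate, 1 for both pooled, and 1 thresholded list of 160 peaks. Per the accompanying file listing the first 3 serve as IDR input (irreproducible discovery rate, a comparison of peak ranks between lists), called with a control file, and the last is its optimal set, derived from them. The sources used here do not state the aligner, peak caller, IDR threshold or read depth. Signal is the authors' deposited value for each peak, whose scale is not stated. The last column but 1, deposited in place of a q-value, falls below 0 in the pooled list and was treated as a score that breaks ties of rank. No count was available, so no interval on depth is given. ce10 lists were not used.

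Genes came from Ensembl release 115 (WBcel235, the ce11 assembly), and sequence from the RefSeq copy of that assembly. Windows, ranks and overlaps of at least 1 bp were computed with pandas 2.3.3 in Python 3.11.15, and proteins were translated from annotated coding sequence and aligned with Biopython 1.88. The window, rank and overlap steps were tested on simulated peak lists. Named genes were all 9 members, the 3 genes most like puf-9 in replicate ranks, neighbours of the best peaks, and pathway genes with a pooled rank within 1000. Further genes alike in rank (bet-2 and unc-115) were named for their TSS distances. Of the pathway symbols, 2 (puf-2 and ntl-1) had no match. Members and lists were chosen with earlier results of these data known. With 1 group no test was made. Alternatives were the window, the gene given a summit, the order of the list, the overlap, the list length and each replicate left out.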

Additional observations from a re-analysis of the deposited data

How the results depend on the processing

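No paired analysis was possible because there is 1 group and no test. The best rank of puf-9 was 12 under both other windows (from 10 kb upstream; from 1 kb upstream to 200 bp downstream), with summits given only to the nearest protein-coding TSS and with the list ordered by its last column but 1. Leaving out each replicate in turn gave ranks of 10 to 13. The number of members with a thresholded peak was 1 under each of these windows and gene rules, among the 80 peaks with the highest signal and in the highest 160 of either replicate. Requiring summits within 100 bp or 50% reciprocal overlap left the share of pooled peaks found in both replicates at 33.3% for puf-9 and 37.5% for the germline paralogues. For puf-9 the first of these rests on another peak, since the pooled summit lay 114 bp from the strong replicate 2 summit (rank 10) and met the 100 bp limit through the weaker replicate 2 peak (rank 11670). The TSS distances did not depend on the choice of TSS, since each member has 1. The germline ranks were looser: 10 of 19 recomputed values moved beyond the spread of the replicates or, where a replicate had no peak, at all. These values cover only paralogues with a pooled peak in the main window. The lack of one at puf-5, puf-6 and fbf-1 also depended on the window. With 10 kb upstream their best pooled ranks were 17602, 10607 and 19560, the last being the peak of fbf-2. With 10 kb upstream puf-8 reached rank 1475, the best of any germline paralogue under any alternative. With the last column but 1 first, puf-7 fell to rank 25840, against 2155 by signal, and puf-3 rose to 1512, against 10074. Over the pooled peaks of the germline paralogues that score ran largely opposite to signal. It was -0.083 at a signal of 19.7 (puf-7) and -0.0044 at 9.94 (puf-3). That order thus mostly reversed the weak peaks, and its values at puf-3, puf-7, puf-11 and fbf-2 are among the 10 that moved. In the promoter window no germline paralogue had a value, and by nearest TSS only fbf-2 did. Read depth, control and mapping quality could not be varied.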
